A study of Mus musculus with 2 samples.

Results

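The Prl-expressing lactotroph-like cells described here were 58 of the 13613 barcodes kept from 2 single-cell libraries, 52 male and 6 female. A member had at least 1 unique molecular identifier (UMI, 1 counted molecule) of *Pou1f1*, at least 10 UMIs of *Prl* and more UMIs of *Prl* than of *Gh*. It also had fewer than 2000 *Cga* UMIs per 1000000 UMIs and at most 2 UMIs of *Col1a1* and *Col3a1* together. Barcodes were kept when they held at least 1000 genes and at most 10% mitochondrial UMIs. The members were thus chosen by their own *Prl*, *Gh*, *Pou1f1*, *Cga* and collagen counts, and the levels of these genes in them are a description of the rule.

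The libraries hold sorted cells from pituitaries of male and female *Sox9* iresGFP/+ mice at postnatal day 3 (P3), a heterozygous reporter line in which GFP is made together with SOX9. The cells were sorted for GFP, a stable protein that can still be seen in cells derived from stem cells (SCs) after SOX9 is lost. The 3 male pituitaries were pooled into 1 library and the 3 female pituitaries into another, and no other genotype or treatment was included. Sex, library and depth cannot be told apart, and no test between the libraries was possible. Both libraries carry the label stem cell, while only 7 of 52 male and 0 of 6 female members held a *Sox2* UMI. The reporter transcript itself gave 1 UMI in the 52 male members and 0 in the 6 female members. Its level in other barcodes is not reported here, so these counts do not set the members apart from them.

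Lactotrophs are the endocrine cells of the anterior pituitary that make prolactin, the hormone that drives milk production. They share the POU-domain factor POU1F1 with somatotrophs (growth hormone) and thyrotrophs (thyroid-stimulating hormone). Prolactin is packed in dense-core granules and released spontaneously, and dopamine from the hypothalamus holds release back through the D2 receptor and inhibitory G proteins. Estrogen and thyroid hormone receptors act on the *Prl* gene, and in the mouse most lactotrophs appear after birth.

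*Prl* lies on the plus strand of chromosome 13 (mm10, 27057570 to 27065205). The 250 bases before its start (chr13:27057320-27057569, GRCm38.p6, RefSeq) are shown because *Prl* defines the members and POU1F1 is the factor they share with the comparison cells. Capitals mark the letters ATGNATA, a core of the POU1F1 motif, searched on both strands.

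Prl: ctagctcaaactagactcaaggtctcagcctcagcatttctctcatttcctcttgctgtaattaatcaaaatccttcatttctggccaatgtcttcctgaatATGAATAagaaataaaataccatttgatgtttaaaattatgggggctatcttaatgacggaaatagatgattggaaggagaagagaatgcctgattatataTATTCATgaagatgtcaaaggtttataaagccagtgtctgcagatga

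The match on the plus strand begins at base -148 and the match on the minus strand at base -47 from the start. Among 32851 mouse promoters of the same RefSeq set, 7.92% held such a match. A match of these letters is a description of the sequence.

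Summed over the male members, *Prl* came to 12708 CPM (UMIs per 1000000 UMIs of the class, 95% interval 12464 to 12955), and over the female members to 7402 CPM (6838 to 8001). All intervals are exact and cover counting error only, since there was 1 library per sex. In the comparison barcodes, which held at least 2 *Pou1f1* UMIs, fewer than 10 *Prl* UMIs and less than 1% *Gh*, *Prl* came to 7.95 CPM (male) and 8.16 CPM (female). There were 666 male and 250 female barcodes of this kind. *Pou1f1* itself stood at 815 CPM (755 to 880) in male members and at 628 CPM (472 to 820) in female members, against 949 and 784 CPM in the comparison.

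Free *Prl* RNA in the droplets was looked for in barcodes with *Sox2*, a stem cell factor, and without *Pou1f1*. *Prl* was at 2.26 CPM in 5304 such male barcodes and at 0.134 CPM in 4668 such female barcodes, with median depths of 11152.5 and 9863 UMIs against 14841 and 14240.5 UMIs in the members. At least 10 *Prl* UMIs were seen in 1 of these male barcodes and in 0 of the female ones, which allows a share of up to 0.0643%. Over all *Sox2* barcodes that were not members, *Prl* was at 36.6 CPM in 5892 male barcodes, 7 of them with 10 or more *Prl* UMIs, and at 0.253 CPM in 4879 female barcodes. One male barcode held 2498 of these 2967 *Prl* UMIs. In all, the members held 68.3% of the 15114 *Prl* UMIs of the male library and 92.6% of the 687 *Prl* UMIs of the female library. A further 28.5% of the male *Prl* UMIs lay in 15 kept barcodes with 10 or more that were not members. Of these, 1 had no *Pou1f1* UMI, 4 had at least as much *Gh* as *Prl*, and 10 were over the limit on *Cga*. Among the 15 was the barcode with 2498 *Prl* UMIs, the highest count of either library.

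*Gh*, the somatotroph hormone, was limited in the members by the rule, which asks for more *Prl* than *Gh*. Its level was 115 CPM (92.5 to 140) in male members and 46.6 CPM (12.7 to 119) in female members, against 110 and 159 CPM in the *Sox2* barcodes without *Pou1f1*. Of those *Sox2* barcodes 99 male and 122 female ones held 10 or more *Gh* UMIs, with up to 403 and 598. Their level is therefore not a measure of free *Gh* RNA alone. Of the male members 34 of 52 had no *Gh* UMI, and only 2 held 10 or more, with 15 and 40 UMIs. Barcodes rich in *Gh* (at least 1% of UMIs, 65 male and 30 female) had *Prl* at 2.02 CPM among the male ones and no *Prl* UMI among the female ones, where a count of 0 allows 6.05 CPM. Members needed more *Prl* than *Gh*, and Gh-rich barcodes at least as much *Gh* as *Prl*. The plot of the hormone counts of single barcodes therefore shows these classes apart by definition. Barcodes with both hormones could fall in neither class, as did a male *Pou1f1* barcode with 29 *Prl* and 33 *Gh* UMIs.

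**Figure D1:**
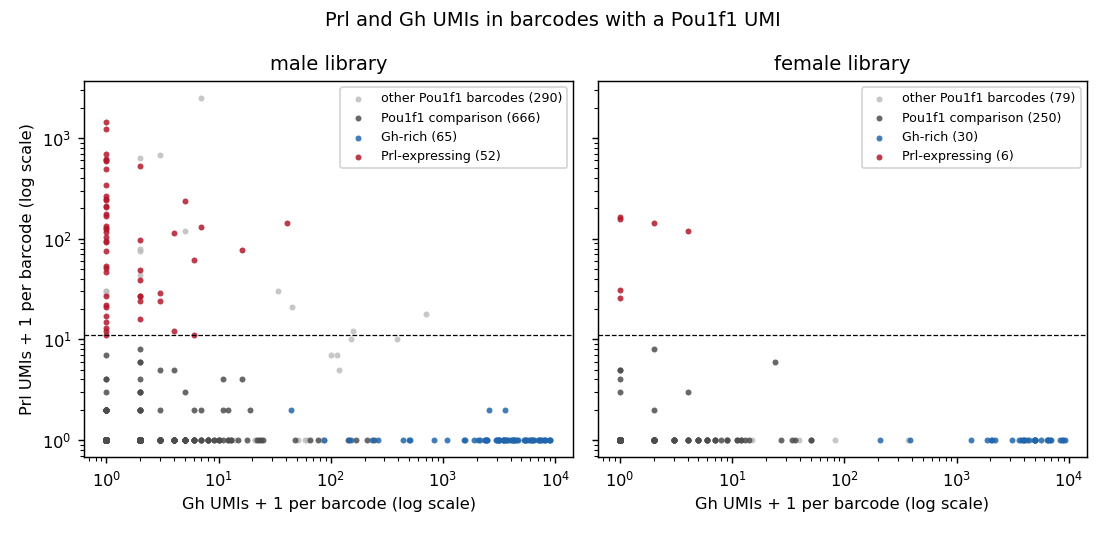
*Prl* against *Gh* UMIs (1 added, log axes) of each kept barcode with a *Pou1f1* UMI, in the male (left) and female (right) library; the dashed line marks 10 *Prl* UMIs. The 52 male and 6 female members lie on or above the line with more *Prl* than *Gh*, and the 65 and 30 Gh-rich barcodes lie at 0 or 1 *Prl* UMIs.

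*Prl* varied widely among the members. The lowest of the 52 male members held 10, the median 95 and the highest 1446 *Prl* UMIs, the last of these being 15.5% of that barcode's UMIs. The 10 highest members held 66.2% of the *Prl* UMIs of the 52 male members. The 6 female members held 25, 30, 118, 143, 156 and 164 *Prl* UMIs, of 12137 to 16388 UMIs in all. The female counts therefore fall within the male range, with none above 164. At the threshold, 2 male members had 10 and 2 had 11 *Prl* UMIs. Just outside it, among barcodes within the other limits of the rule, 2 male barcodes had 5 and 1 had 6, none had 7 to 9, and 1 female barcode had 7.

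The members made up 0.649% (0.485 to 0.851) of 8009 kept male barcodes and 0.107% (0.0393 to 0.233) of 5604 kept female barcodes. The ratio of the shares, male over female, was 6.06 (interval 2.61 to 17.3). Over the same kept barcodes that ratio was 1.86 (1.61 to 2.16) for the comparison barcodes and 1.52 (0.969 to 2.42) for the Gh-rich barcodes. Among kept barcodes with a *Pou1f1* UMI, members were 4.85% of 1073 male and 1.64% of 365 female barcodes, a ratio of 2.95 (1.27 to 8.40). For the comparison barcodes the ratio over *Pou1f1* barcodes was 0.906 (0.782 to 1.05), and for the Gh-rich barcodes 0.737 (0.471 to 1.18). The members were thus more frequent among male *Pou1f1* barcodes, while on that denominator neither of the other classes was beyond counting error. With 1 library each, a difference between sexes and one between dissociations or sorts cannot be told apart. The 2 libraries shared 19 cell barcodes, none of them a member.

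*Angpt1*, a ligand of the endothelial receptor TIE2 and the remaining marker given for these cells, separated them less than *Prl* did. It was at 98.5 CPM (78.1 to 123) in the male members against 67.7 CPM (62.9 to 72.9) in comparison barcodes, and at 105 CPM (47.9 to 199) in the female members against 71.1 CPM (62.5 to 80.6). The male ratio was 1.46 (1.14 to 1.84) and the female ratio 1.47 (0.665 to 2.84). Against comparison barcodes with no *Sox2* UMI the male ratio was 1.18 (0.914 to 1.50), so that counting error then covered it. In the Gh-rich barcodes *Angpt1* was at 22.8 and 10.1 CPM. It was the only well-measured one of 14 angiopoietin and VEGF pathway genes, and it was not called.

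What the members were compared with bears on every ratio below. A *Sox2* UMI was found in 47.3% of the male and 54.0% of the female comparison barcodes, against 13.5% and 0 of the members (0 of 6 allows up to 50%). The comparison had no limit on *Cga* or collagens, and 15.3% of its male and 7.20% of its female barcodes had *Cga* at 2000 CPM or more. A gene is called higher or lower here when the ratio of CPM + 5 was at least 2-fold in the same direction in both libraries. Of 3209 genes with at least 50 CPM in a class and 100 UMIs in all, 47 (1.46%) were higher and 70 (2.18%) lower in the members. With the comparison cut to its 351 male and 115 female barcodes without a *Sox2* UMI, 19 were higher and 24 lower, and 17 and 20 of these were among the 47 and 70. For each direction, the 15 top-ranked genes serve as examples below. Without the *Sox2* barcodes, 14 of the 15 higher genes and 9 of the 15 lower genes were still 2-fold apart in both libraries.

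**Figure D2:**
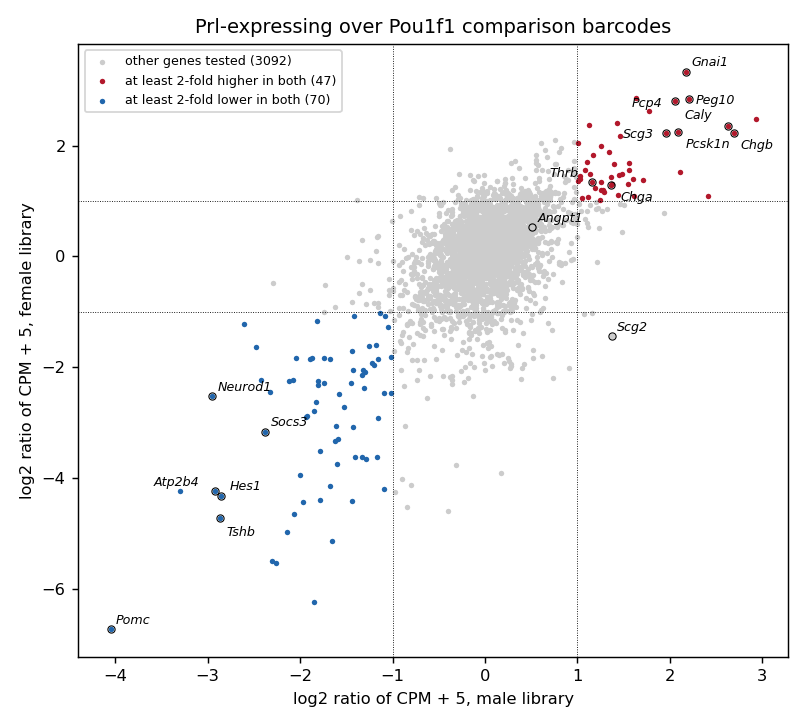
Log2 ratio of CPM + 5 in the members over the comparison for 3209 genes, male library on the x axis and female library on the y axis; dotted lines mark 2-fold. The 47 higher genes (red) include *Chgb*, *Peg10* and *Gnai1*, the 70 lower genes (blue) include *Pomc*, *Tshb* and *Hes1*, and *Scg2* lies right of the 2-fold line for the male and below that for the female library.

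Of the lists examined, the secretory granule list had the most genes called higher. Of the 32 genes listed, 16 were measured well enough, and 5 of these were higher in both libraries and none was lower. Against the male comparison alone 8 were higher, where 2.15% of all genes were. The median log2 ratio of the 16 was 1.09 (male) and 1.01 (female), against 0.03 and 0.12 over all genes tested. The 5 of 16 stand beside 1.46% of all genes. They included *Chgb*, *Chga*, *Scg3* and *Pcsk1n*.

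*Chgb*, on chromosome 2 (mm10, 132781278 to 132795079), encodes chromogranin B, a core protein of dense granules. Male members had 4845 CPM (4695 to 4999) against 745 CPM in the comparison, and female members had 4004 CPM (3592 to 4450) against 853 CPM. Every member held it, from 6 to 404 UMIs with a median of 54.5 in the male library, where the median comparison barcode held 3. The female members, in ascending order of *Prl*, held 33, 57, 96, 84, 34 and 40 *Chgb* UMIs. The groups overlap, since single comparison barcodes held up to 924 (male) and 775 (female) *Chgb* UMIs, 11.7% and 26.5% of their sums. The male ratio was 6.50 (6.26 to 6.76) and the female ratio 4.70 (4.19 to 5.25), or 5.29 and 2.47 without the *Sox2* barcodes. The Gh-rich barcodes had 412 and 742 CPM, although 17.2% and 28.2% of their UMIs were *Gh*, which lowers the CPM of every other gene there.

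*Scg3* (secretogranin III), which binds chromogranins to the granule membrane, was at 857 and 1036 CPM in the male and female members against 217 and 216 CPM in the comparison. *Pcsk1n*, which encodes the proSAAS inhibitor of prohormone convertase 1, was at 2316 and 1525 CPM against 538 and 316 CPM. Both were present in all 58 members. The Gh-rich barcodes held *Pcsk1n* too, at 1452 and 1536 CPM. *Chga* (chromogranin A) was at 659 and 605 CPM against 253 and 243 CPM, and at 260 and 526 CPM in Gh-rich barcodes.

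Of the granule genes that were not called, *Scg5* (the 7B2 chaperone of prohormone convertase 2) stood at 771 and 524 CPM against 268 and 274 CPM, just short of 2-fold in the female library. *Snap25*, a membrane protein of the fusion complex, had ratios of 2.04 (1.63 to 2.52) and 3.23 (1.73 to 5.57). *Sytl4* (granuphilin), a granule effector of RAB27, had ratios under 1 in both libraries, 0.593 (0.455 to 0.761) and 0.207 (0.025 to 0.754). The convertase gene *Pcsk2* had 0 UMIs in all members, which allows up to 3.70 CPM in the male library, against 18.5 CPM in the male comparison. The list therefore did not move as 1 block. Without the *Sox2* barcodes 4 of 15 granule genes were higher and 1, *Sytl4*, was lower.

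*Scg2* (secretogranin II) had ratios on opposite sides of 1 in the libraries. It was at 580 CPM (529 to 635) in the male members against 221 CPM, and at 116 CPM (55.8 to 214) in the female members against 324 CPM. The 6 female members held 1, 2, 4, 1, 1 and 1 *Scg2* UMIs in ascending order of *Prl*, whereas the male members held 0 to 39 with a median of 8. Against comparison barcodes without *Sox2* the ratios were 1.96 (1.76 to 2.18) and 0.236 (0.113 to 0.436). Against those without *Sox2* or *Tshb* they were 2.36 (2.11 to 2.65) and 0.596 (0.281 to 1.12), so that the female interval then covered 1. The difference between the libraries was not tested. *Chgb* and *Scg2* are shown with the cyclic AMP response element letters TGACGTCA in capitals (GRCm38.p6, RefSeq), because they stood on opposite sides of the comparison in the female members.

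Chgb (chr2:132781560-132781587, plus strand): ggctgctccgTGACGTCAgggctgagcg
Scg2 (chr1:79440077-79440104, minus strand): gctgagccggTGACGTCAgcgtggaatg

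Counted from the RefSeq start, the element begins at base -72 in *Chgb* and at base -68 in *Scg2*. Both stretches lie inside the GENCODE spans of these genes, which begin further upstream than the RefSeq starts. Of the 32851 promoters, 1.55% held the element on either strand. The promoters of *Chga*, *Scg3* and *Pcsk1n* held no match in the same window. Both genes hold the element, and no more than the presence of these letters was examined.

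**Figure D3:**
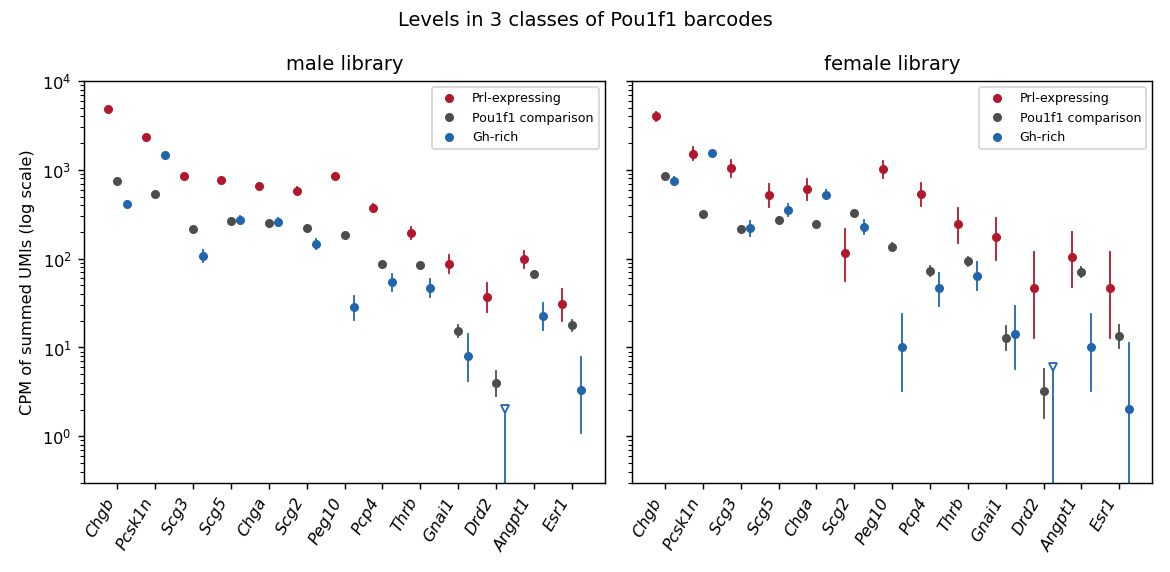
CPM (log axis) of 13 genes in the members, the *Pou1f1* comparison and the Gh-rich barcodes of the male (left) and female (right) library; bars are exact 95% Poisson intervals and open triangles mark what a count of 0 allows. *Drd2* was not counted in Gh-rich barcodes, and the members lie above the comparison for *Scg2* in the male library and below it in the female library.

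*Drd2*, the dopamine receptor of lactotrophs, had the highest ratio of the receptor genes named here. It lies on chromosome 9 (mm10, 49340627 to 49408177) and had 37.0 CPM (24.9 to 52.8) in male members against 3.97 CPM (2.86 to 5.37), a ratio of 9.30 (5.62 to 15.2). In the female members it was at 46.6 CPM (12.7 to 119), of 4 UMIs, against 3.21 CPM. A *Drd2* UMI was found in 19 of 52 male and 3 of 6 female members, and in 3.75% and 2.40% of the comparison barcodes. In *Sox2* barcodes without *Pou1f1* the shares were 1.79% and 0.771%, at the median depths given above. After thinning each barcode to 5000 UMIs, 6 of 52 male members (11.5%, interval 4.35 to 23.4) and 1.14% of the male comparison barcodes still held one, and 0 of 6 female members did. No *Drd2* UMI was found in the 95 Gh-rich barcodes. *Drd2* was below the level at which genes entered the 3209, so it is not among the 47.

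*Gnai1*, the alpha subunit of an inhibitory G protein of the kind the D2 receptor uses, was also higher. It was at 87.5 CPM (68.3 to 110) in the male members against 15.4 CPM, and at 175 CPM (97.7 to 288) in the female members against 12.8 CPM. In the female library 13 of the 15 *Gnai1* UMIs lay in 2 members, with 6 and 7. *Pde10a*, a phosphodiesterase that breaks down cyclic AMP, was at 211 and 209 CPM against 68.2 and 61.2 CPM. *Cacna1d*, a voltage-gated calcium channel of endocrine cells, was the only one of 3 well-measured channel genes of 28 listed that was called, at 93.6 and 128 CPM against 38.1 and 51.3 CPM. Without the *Sox2* barcodes *Cacna1d* had ratios of 1.76 and 1.96.

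Of the 33 receptor genes listed, 5 were measured well enough and only *Thrb* was called. *Thrb*, thyroid hormone receptor beta, had 196 CPM (167 to 229) in male and 244 CPM (151 to 374) in female members, against 84.7 and 93.6 CPM. Without the *Sox2* barcodes its ratios were 1.71 and 2.03, so the call was lost. *Esr1*, the estrogen receptor, had 30.8 CPM (19.9 to 45.5) against 17.9 CPM among male and 46.6 CPM (12.7 to 119) against 13.4 CPM among female barcodes. Its female interval reached down to the comparison, and without the *Sox2* barcodes the male ratio was 1.16 (0.719 to 1.79). The prolactin receptor gene *Prlr* was no higher in the members (40.7 and 23.3 CPM) than in the comparison (41.6 and 50.1 CPM). *Ghrhr*, the somatotroph receptor for growth hormone-releasing hormone, had 0 UMIs in the members.

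The folding machinery of the endoplasmic reticulum did not follow the granule genes. None of 24 well-measured genes of 30 listed was called in either direction, with a median log2 ratio of 0.03 (male) and 0.22 (female). *Hspa5* (BiP), the main chaperone, was at 547 and 489 CPM in the members against 642 and 715 CPM. *Ssr4*, a translocon subunit, had ratios above 1 in both libraries, 1.63 (1.50 to 1.77) and 1.42 (1.08 to 1.85). So had *Sdf2l1*, a chaperone partner, with 1.37 (1.12 to 1.66) and 2.76 (1.61 to 4.46).

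Outside the lists, *Peg10*, a paternally expressed gene of retrotransposon origin, stood out from both other *Pou1f1* classes. It lies on chromosome 6 (mm10, 4747306 to 4760517) and had 862 CPM (800 to 929) in male and 1013 CPM (811 to 1249) in female members. The comparison had 183 and 136 CPM and the Gh-rich barcodes 28.2 and 10.1 CPM. A *Peg10* UMI was found in 50 of 52 male and 6 of 6 female members, and the female members held 11, 20, 14, 24, 7 and 11 in ascending order of *Prl*. *Pcp4*, a small calmodulin regulator, was at 373 and 535 CPM against 86.2 and 72.6 CPM, and at 54.4 and 46.4 CPM in Gh-rich barcodes. *Nsg2*, a vesicle protein of neurons, was at 127 and 175 CPM against 42.9 and 34.7 CPM.

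The gene with the largest male ratio, 1500009L16Rik, was at 149 CPM against 15.1 CPM there, in 29 of 52 members. Its female value rested on 9 UMIs in 2 members, with 88.9% in 1 of them. *Caly*, a vesicle protein, was at 249 and 116 CPM against 36.0 and 18.7 CPM, again in only 2 female members. *Caly* was also at 199 and 155 CPM in Gh-rich barcodes. The same held for *Pnmal1*, *Lrrc10b*, *Pde10a*, *Necab2* and *Dclk1*, which were at 57.1 to 117 CPM in the male and 98.8 to 264 CPM in the female Gh-rich barcodes. In the female library the interval of members over Gh-rich barcodes covered 1 for all 6 genes, and in the male library for *Lrrc10b* alone. The male ratios of the other genes ran from 1.25 (1.04 to 1.50) for *Caly* to 1.83 (1.39 to 2.41) for *Dclk1*. These ratios are raised by *Gh*, which made up 17.2% of the male and 28.2% of the female Gh-rich UMIs. Male intervals that begin just above 1, such as that of *Caly*, therefore need not exclude equal levels. Ratios with *Gh* left out were not computed.

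The lower genes included 2 hormone genes of other cell types, for which the comparison rested on few barcodes. *Pomc*, the corticotroph and melanotroph precursor, was at 203 and 23.3 CPM in the members against 3448 and 2983 CPM, but 1 female comparison barcode carried 97.7% of its class and 1 male barcode 37.9%. The median male member held 3 *Pomc* UMIs and the median male comparison barcode 2. *Tshb*, the thyrotroph hormone subunit, was at 17.2 and 34.9 CPM against 158 and 1042 CPM. With the limits on *Cga* and collagens also set on the comparison, the *Tshb* ratio of CPM + 5 turned to 1.18 (male) and 1.26 (female). A low *Tshb* level was left in 10 of 52 male and 2 of 6 female members, at most 3 UMIs each, and in 1.64% and 1.44% of the *Sox2* barcodes without *Pou1f1*.

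Stem cell genes were lower, as a group, against the comparison as a whole. Of 14 listed, 6 were measured well enough and 5 were lower in both libraries: *Sox2*, *Aldh1a2*, *Rbpms*, *Hes1* and *Krt18*. Of all genes tested, 2.18% were. *Hes1*, an effector of Notch signalling, was at 18.5 and 11.6 CPM in the members against 165 and 327 CPM, and in *Sox2* barcodes without *Pou1f1* at 580 and 1221 CPM. *Sox9*, the gene that carries the reporter, was at 4.93 and 11.6 CPM against 39.6 and 57.7 CPM, and it was found in 3 of 52 and 1 of 6 members. The 38 male *Sox2* UMIs lay in 7 members, with 17 in 1 of them. Against the comparison without *Sox2* UMIs, *Hes1* was still 2-fold lower in both libraries (ratios 0.385 and 0.0769), and none of the 3 stem cell genes measured well enough there was called.

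Of 21 transcription factors listed, 14 were measured well enough and only *Neurod1*, a basic helix-loop-helix factor, was called, at 14.8 and 23.3 CPM in the members against 148 and 157 CPM. The call held without the *Sox2* barcodes, with ratios of 0.0797 and 0.127. *Six6*, a homeobox factor, was at 976 and 710 CPM in the members against 719 and 796 CPM. *Six3*, also a homeobox factor, had intervals under 1 in both libraries, with ratios of 0.601 and 0.506. *Lef1*, the WNT effector of differentiating SCs, was at 29.6 and 46.6 CPM against 52.5 and 58.9 CPM.

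Of the pathway through which prolactin acts, 13 genes were listed and 5 were well measured. The 2 of these called, both lower, were suppressors of cytokine signalling, which are feedback inhibitors. *Socs3* was at 30.8 and 23.3 CPM in the members against 181 and 248 CPM, and *Socs2* at 24.6 and 11.6 CPM against 69.7 and 68.2 CPM. Without the *Sox2* barcodes only *Socs3* was still 2-fold lower in both. *Jak1* and *Ptpn11* of the same list had ratios of 0.808 and 1.05 in the male library. *Socs3* is also an early response gene, and of 9 well-measured immediate-early genes, which tissue dissociation can raise, *Jun* and *Atf3* were lower in both libraries. Against the male comparison alone 3 of the 9 were lower, where 2.99% of all genes were. *Jun* was at 147 and 442 CPM against 838 and 1388 CPM, and 8 of the 9 had intervals under 1 in both libraries. The summed level of the 12 immediate-early genes was 4663 and 6669 CPM in male and female members, against 8433 and 10540 CPM in the comparison. Its part in the other differences was not tested. *Atp2b4*, a calcium pump of the plasma membrane, was at 4.93 CPM in the male members and at 0 in the female members (up to 34.9 CPM), against 70.4 and 89.2 CPM, and this held without the *Sox2* barcodes.

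Most markers of other cells were scarce in the members. Summed over each list, the 6 endothelial markers came to 7.39 and 0 CPM and the 9 blood and immune markers to 1.23 and 11.6 CPM, with 8 of these 9 at 0 in each library. The 10 mesenchymal and pericyte markers summed to 56.7 and 175 CPM in male and female members, against 154 and 126 CPM in the comparison. Among them, *Col1a1* and *Col3a1* were limited by the rule in the members and not in the comparison. In the male comparison these stood at 22.9 and 26.5 CPM, so the sums are partly set by the rule. Nearly all of the sum in the members was *Col1a2*, at 48.0 and 163 CPM. The 5 pituicyte markers summed to 9.85 and 34.9 CPM. None of the 25 other genes of the prolactin family had a UMI in any member. Scrublet, a doublet score, placed 3 of 52 male and 0 of 6 female members among its highest scores, against 89 of 666 and 20 of 250 comparison barcodes. Over all kept barcodes the shares, set by the marking rate, were 6.41% (male) and 4.48% (female). The male members, at 5.77% (1.21 to 15.9), were near that share.

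Within the male members, some granule genes were higher where the share of *Prl* was higher and others were not. Members were set in 3 ranges, with *Prl* under 0.1% (4 members), from 0.1% to 1% (31) and from 1% (17) of their UMIs, and CPM were taken without *Prl* and *Gh*. *Scg3* was at 548 CPM (379 to 766), 691 CPM (619 to 768) and 1293 CPM (1157 to 1442) from the lowest to the highest range. *Pcp4* was at 209 CPM (112 to 358), 219 CPM (180 to 265) and 728 CPM (627 to 842). However, 1 of the 17 members of the top range carried 57 of its 183 *Pcp4* UMIs, or 18.8% of those of all male members. Both *Scg3* and *Pcp4* were higher in the top range than in the lower ranges beyond counting error, which leaves out the spread between members. *Chgb* was at 4899, 4188 and 6308 CPM, and *Gnai1* at 80.6, 53.3 and 159 CPM.

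*Chga* was lower in the top range, at 446 CPM (367 to 536) against 744 CPM (669 to 824) in the middle range. The lowest range had 967 CPM, with 36 of its 60 UMIs in 1 of the 4 members, and 566 CPM (363 to 843) without that member. *Dlk1*, a Notch-related protein of progenitors and somatotrophs, was at 1773, 1889 and 1082 CPM, and at 1038 CPM in the lowest range without 1 member that held 66 of 110 UMIs. With the member of most UMIs left out of each range, a choice made after seeing the data, the top range still differed from the middle range beyond counting error for *Scg3*, *Pcp4*, *Chgb*, *Gnai1*, *Chga* and *Dlk1*. *Angpt1* was at 226 CPM (123 to 379), 102 CPM (76.0 to 135) and 63.7 CPM (36.4 to 103), but 9 of the 14 UMIs of the lowest range lay in 1 of its 4 members. Without that member the lowest range had 107 CPM (34.8 to 250), within the interval of the middle range. *Rxrg*, a retinoid receptor, was at 102 CPM in the middle and 7.96 CPM in the top range, while *Thrb* was at 209, 184 and 223 CPM. *Sox2* was at 73.8 CPM in the middle range, with 17 of 36 UMIs in 1 member, and at 7.96 CPM in the top range. The ranges describe members of 1 library, and members are not replicates.

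**Figure D4:**
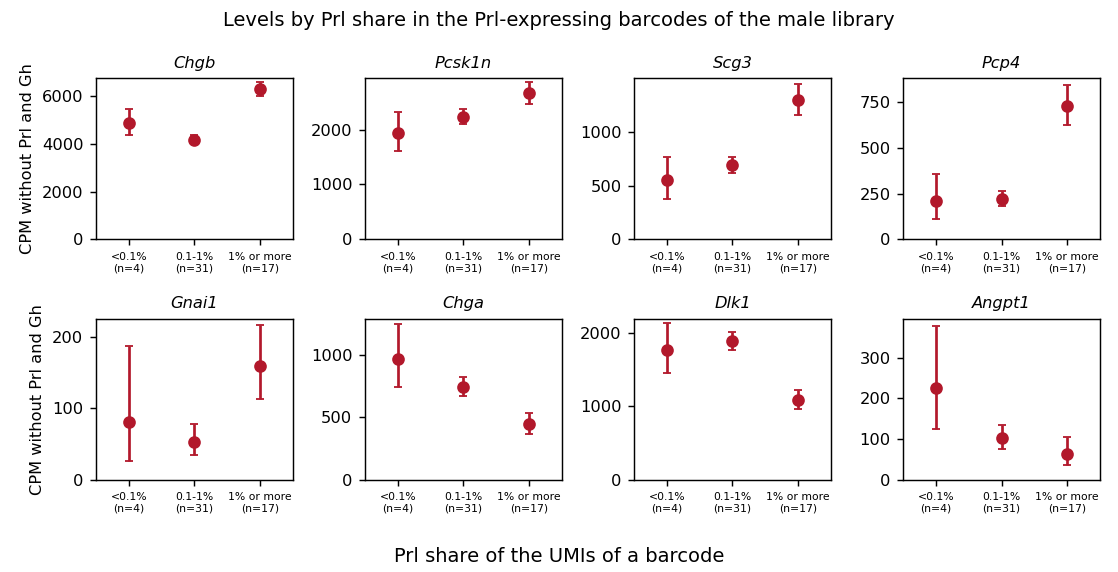
CPM without *Prl* and *Gh* of 8 genes in the male members, by the share of *Prl* in their UMIs (4, 31 and 17 members); points are summed levels and bars exact 95% Poisson intervals. *Scg3* and *Pcp4* are highest and *Chga* and *Dlk1* lowest where *Prl* is 1% or more; in the lowest range 1 of the 4 members holds most of the *Chga*, *Dlk1* and *Angpt1* UMIs.

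Proliferation was counted as UMIs of at least 2 of 8 markers (*Mki67*, *Top2a*, *Pcna*, *Ccnb1*, *Cdk1*, *Birc5*, *Ccna2* and *Mcm2*) after thinning to 5000 UMIs. It was found in 11 of 52 male members (21.2%, interval 11.1 to 34.7) and in 8.44% (6.37 to 10.9) of 616 male comparison barcodes, with a further 50 too shallow. Unthinned, the shares were 30.8% and 18.0%. Thinned to 3000 UMIs, they were 13.5% (5.59 to 25.8) and 7.21% (5.33 to 9.50), and the intervals overlapped. Male *Sox2* barcodes without *Pou1f1* came to 18.6% (17.5 to 19.8), a share within the interval of the members. Of the 6 female members 0 were counted, which allows up to 50%, against 4.07% of 246 female comparison barcodes. *Mki67*, a marker of cycling cells, was found in 9 of 52 male members before thinning. No cell was called cycling from a phase score.

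**Figure D5:**
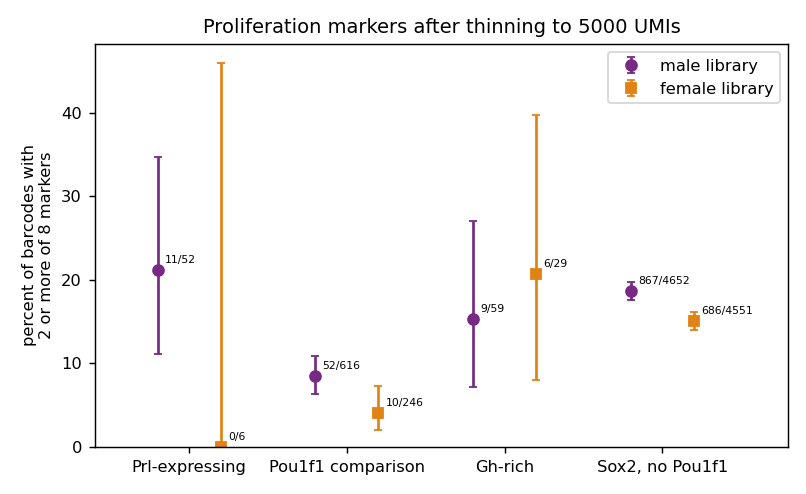
Percent of barcodes with at least 2 of 8 proliferation markers after thinning to 5000 UMIs, by class and library; bars are exact 95% binomial intervals and labels give barcodes counted over barcodes deep enough. The male members stand at 21.2% and the male comparison at 8.44%, and 0 of 6 female members were counted.

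Between the sexes, 1496 genes could be compared in the members, of which 90 (6.02%) were at least 2-fold higher in the male and 17 (1.14%) at least 2-fold higher in the female members. The male members held 811785 UMIs and the female members 85920, so an equal CPM gives far fewer female UMIs. A gene could enter on male UMIs alone, as *Ube2c* did with 171. *Usp9x*, higher in the female members, had 26 female and 74 male UMIs. The split of 90 against 17 therefore cannot show whether more genes were higher in 1 sex. *Ube2c* and *Cenpf*, genes of mitosis, were at 211 and 172 CPM in the male members and had no UMI in the 6 female members. A count of 0 allows up to 34.9 CPM if UMIs are spread evenly over cells, but genes of dividing cells need not be. Among the male members *Top2a* was found in 6 of 52 and *Mki67* in 9 of 52. Having 0 of 6 female members with a UMI allows a share of up to 50%. *Hist1h1b*, a linker histone of dividing cells, was at 306 against 23.3 CPM and *Hmgb2*, a chromatin protein, at 601 against 69.8 CPM. These genes were also higher in the male than in the female comparison barcodes, where *Ube2c* had a ratio of 5.07 (4.03 to 6.45), *Cenpf* of 3.24 (2.70 to 3.90), *Hmgb2* of 1.77 (1.64 to 1.91) and *Hist1h1b* of 1.46 (1.31 to 1.64). *Mdk*, the growth factor midkine, was at 350 CPM (310 to 393) against 34.9 CPM (7.20 to 102). In the comparison barcodes *Mdk* had 753 CPM (male) and 728 CPM (female), so it did not differ there to that extent.

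On the female side, *Rbp4*, the plasma carrier of retinol, was at 663 CPM (502 to 860) against 122 CPM (99.1 to 148) in the male members, and at 169 and 160 CPM in the female and male comparison. *Txnip*, a thioredoxin-binding protein, was at 640 against 191 CPM, and *Jun* at 442 against 147 CPM. Both were also higher in the female comparison, at 916 against 647 CPM for *Txnip* and at 1388 against 838 CPM for *Jun*. *Usp9x* and *Sltm* were at 303 and 279 CPM in the female against 91.2 and 102 CPM in the male members. All female values rest on 6 barcodes and 85920 UMIs, against 811785 UMIs in the male members, so the lists hold those genes whose difference was large enough to pass at this depth.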

How the data were processed

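Sorted P3 pituitary cells were sequenced as 1 droplet library of 3 pooled pituitaries per sex. Reads were processed by the authors in Cell Ranger 3.0.2 (STAR 2.5.1b, mm10 transcriptome with eGFP added), and they deposited whole-number UMI counts per gene and barcode (31055 features), without normalization. The sources differ on the chemistry (v2 or v3 kit). The male library held 10569 barcodes and 106039887 UMIs, the female library 5796 barcodes and 62897759 UMIs. All barcode filters, sums, CPM and intervals were computed here from the deposited counts with Python 3.11.15, numpy 2.4.6 and scipy 1.17.1. The members and the gene lists were chosen with earlier results of these data known.

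Counts were summed per class and library. Levels have exact Poisson, ratios exact conditional and shares exact Clopper-Pearson 95% intervals, for counting error only, and a count of 0 was given the limit of 3 counts. With 1 library per sex, no model was fitted and no p-value computed. Named genes are those of 22 lists, the 15 largest ratios each way and, between sexes, the 5 largest each way. The 6 genes of the rule were left out of the calls. For shares, barcodes were thinned to 5000 UMIs (seed 1). Scrublet (scanpy 1.11.5) marked the highest 0.8% per 1000 barcodes, and no doublet was removed in the main setting. In counts simulated with Poisson error from the female comparison (3062 genes), 94% of genes lowered and 100% of genes raised 4-fold passed 2-fold. There 96.2% of intervals held the true ratio, which follows from simulating the error that the intervals assume. Clustering of UMIs in single barcodes was not simulated, so this does not show how the intervals fare on the real sums. Alternatives varied the thresholds, the comparison barcodes and the scaling. Gene positions are from GENCODE vM21 and promoters from RefSeq (GRCm38.p6). Some listed genes are counted in the list summaries and not reported here by name.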

Additional observations from a re-analysis of the deposited data

Results flagged for a closer look

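*Scg2* (secretogranin II) was looked at again because its ratios lay on opposite sides of 1 in the 2 libraries. The ratio of members to comparison was 2.62 (2.37 to 2.90) in the male library and 0.359 (0.172 to 0.662) in the female library. Against comparison barcodes without *Sox2* or *Tshb* the female ratio was 0.596 (0.281 to 1.12), whose interval covers 1. The female value rests on 10 UMIs in 6 members. The difference between the libraries was not tested, since each sex has 1 library.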

How the results depend on the processing

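No paired analysis was possible because each sex has 1 library. The number and share of members, their ratio between the sexes and the proliferating share stayed within their main intervals under each alternative tried (5 or 20 *Prl* UMIs, 500 or 2000 genes, 5% mitochondrial UMIs, 2 *Pou1f1* UMIs, no limit on *Cga*, highest Scrublet scores removed, another denominator, other thinning). The 47 higher and 70 lower genes became 87 and 173 with genes from 20 CPM, where more genes are tested. Settings chosen after seeing the data gave 19 and 24 without comparison barcodes holding a *Sox2* UMI, 31 and 30 without those holding *Sox2* or *Tshb*, and 98 and 106 in the male library alone. Also chosen after seeing the data, members without a *Sox2* UMI gave 56 and 87. Leaving out the 2 members of most *Prl* in each library gave 60 and 73. The other settings gave 44 to 56 higher and 67 to 75 lower. On ratios of CPM + 5, directions reversed for 3 named genes. The female 1500009L16Rik ratio was 0.955 with 2 *Pou1f1* UMIs. The *Tshb* ratio was 1.18 (male) and 1.26 (female) with limits on *Cga* and collagens in the comparison, and 4.45 and 7.98 without *Sox2* or *Tshb* barcodes, where the comparison has no *Tshb* by construction and the value is set by the 5 CPM added. The male *Igfbp2* ratio was 1.12 without *Sox2* barcodes and 1.05 without *Sox2* or *Tshb* barcodes. Of all other single-gene ratios, 959 stayed within and 114 moved out of their main interval. In the female members a gene with 0 UMIs can still be at up to 34.9 CPM, which limits what 6 barcodes can show.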
